A study of Homo sapiens with 2 samples.

Results

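The DNA replication and S-phase genes described here are a list of 42 named genes, taken by symbol from the 62704 genes in the deposited tables. All 42 were found in both libraries and all 42 had transcripts in every comparison below. Before a cell divides, MCM helicases are loaded onto origins of replication with the help of CDC6 and CDT1, CDC45 and GINS then activate them, and polymerases copy both strands while a sliding clamp holds them on DNA. Nucleotides, histone chaperones and checkpoint proteins are supplied at the same time, and much of the set is transcribed under E2F factors as cells pass from G1 into S phase. In the developing cortex radial glia (RG) and intermediate progenitor cells (IPCs) divide, whereas neurons have left the cell cycle.

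The data came from brain organoids grown from the human embryonic stem cell line H9 and measured with split-seq, a method that labels RNA inside fixed cells or nuclei by several rounds of well barcodes. The cell library pooled control cerebral organoids (CO) of days 45, 55 and 70, organoids dissociated on day 45, reaggregated (DISS) and taken on days 48, 55 and 70, and organoids stripped of Matrigel on day 13 and constrained in agarose (CONS), taken on day 55. The nuclear library was the control experiment of the study, with nuclei of day 45 CO taken from whole organoids or from cell suspensions, and its label lists Control, Dissociated and Embed as treatments. Every barcode of a library carried 1 sample name, so CO, DISS and CONS, days and organoids could not be compared here, each library counted as 1 sample, and no test between samples was possible. Values are also given by well of the first barcoding round, but no label ties a well to an organoid or condition and wells may share organoids, so counts of wells are descriptions and not replicates. All organoids shared 1 cell line, and both libraries were mixtures of cell types.

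A barcode was kept if it held over 500 genes and over 1000 transcripts, of which no more than 20% were mitochondrial, which left 20178 of 1303455 in cells and 14228 of 197446 in nuclei. The kept cells had a median of 2615 transcripts (quartiles 1427 and 7224) and the kept nuclei a median of 3890 (2275 and 6191). Levels are counts per 10000 transcripts (CP10K) summed over the barcodes of a type, and a difference is given as a ratio of such levels. Ranges in parentheses after a value are 95% exact intervals, which cover counting error only. Types were named from marker genes after clustering without the 42 genes and without the listed mitotic and other cell cycle genes. Cycle genes outside these lists were not removed. Some were among the leading genes of RG-like clusters, such as HJURP and KIF18B in cluster 2 of the cells, SPC25 in nuclear cluster 13 and SGO2 in nuclear cluster 14. The clusters were thus not independent of the cell cycle. This gave 3614 RG-like, 1354 IPC-like and 1368 neuron-like cells, and 6830 RG-like, 516 IPC-like and 3457 neuron-like nuclei. All neuron-like clusters were named from excitatory neuron markers, no cluster was named as inhibitory neurons, and Cajal-Retzius-like barcodes were kept apart. In the RG-like clusters 8 to 10 of 12 RG markers lay above their limit in cells and 3 to 9 of 12 in nuclei. These counts come from the naming rule itself and are not a separate check of the types. Nuclear clusters 3 and 4 rested on 3 RG markers each, cluster 4 also passed 6 of 7 glycolysis markers, and clusters 15 and 16 were led by EGR1 and FOS or by heat-shock genes. Other names rested on few markers too. Cluster 6, with 1507 of the 2104 choroid plexus-like cells, passed 3 of 8 markers at a median of 1709 transcripts. Nuclear cluster 8, with 731 of the 840 Cajal-Retzius-like nuclei, passed 3 of 7, and GAD1 was among its leading genes. No type was assigned to 10502 cells and 1302 nuclei, and 99 barcode names occurred in both libraries.

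The promoters of the list are shown first for the licensing genes MCM6 and MCM2 and the regulator E2F1, which held more than 1 E2F word each, for POLE, the least RG-enriched gene of the list, and for RRM2, which had no E2F word but was raised with mitotic genes in the comparison below. RefSeq windows of GRCh38.p14, from 250 bases before to 50 bases after an annotated start, were found for 36 of the 42 genes, in 47 windows. The windows printed 5′ to 3′ on the gene's strand are chr2:135876394-135876693 (minus) for MCM6, chr3:127598161-127598460 (plus) for MCM2, chr20:33686336-33686635 (minus) for E2F1, chr12:132687293-132687592 (minus) for POLE and chr2:10122489-10122788 (plus) for RRM2. Capitals mark the E2F words TTTGGCGC, TTTCCCGC, TTTCGCGC and TTTGCCGC on either strand in the first 4 sequences, where words on opposite strands may overlap, and the word CCAAT on either strand in RRM2.
MCM6: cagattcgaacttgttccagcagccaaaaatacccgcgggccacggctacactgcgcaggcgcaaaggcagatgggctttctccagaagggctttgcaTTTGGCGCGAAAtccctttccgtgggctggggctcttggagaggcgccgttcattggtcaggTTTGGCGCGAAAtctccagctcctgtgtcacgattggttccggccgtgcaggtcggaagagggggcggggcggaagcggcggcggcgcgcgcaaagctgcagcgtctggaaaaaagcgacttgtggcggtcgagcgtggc
MCM2: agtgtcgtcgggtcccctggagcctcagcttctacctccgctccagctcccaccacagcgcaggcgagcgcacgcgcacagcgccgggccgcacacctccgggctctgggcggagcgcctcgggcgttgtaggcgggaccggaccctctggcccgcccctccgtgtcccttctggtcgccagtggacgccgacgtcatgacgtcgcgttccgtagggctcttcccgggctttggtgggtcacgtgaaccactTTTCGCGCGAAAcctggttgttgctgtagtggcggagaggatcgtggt
E2F1: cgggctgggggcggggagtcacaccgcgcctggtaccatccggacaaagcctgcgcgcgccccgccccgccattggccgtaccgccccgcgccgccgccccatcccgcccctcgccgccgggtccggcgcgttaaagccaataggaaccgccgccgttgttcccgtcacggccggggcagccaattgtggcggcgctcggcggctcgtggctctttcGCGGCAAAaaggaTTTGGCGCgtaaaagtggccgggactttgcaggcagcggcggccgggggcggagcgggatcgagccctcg
POLE: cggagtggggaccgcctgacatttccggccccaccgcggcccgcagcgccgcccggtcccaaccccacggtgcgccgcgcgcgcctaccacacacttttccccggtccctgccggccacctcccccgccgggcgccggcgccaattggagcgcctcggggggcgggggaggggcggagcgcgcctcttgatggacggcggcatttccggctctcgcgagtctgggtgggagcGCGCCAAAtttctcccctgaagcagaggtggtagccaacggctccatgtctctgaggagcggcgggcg
RRM2: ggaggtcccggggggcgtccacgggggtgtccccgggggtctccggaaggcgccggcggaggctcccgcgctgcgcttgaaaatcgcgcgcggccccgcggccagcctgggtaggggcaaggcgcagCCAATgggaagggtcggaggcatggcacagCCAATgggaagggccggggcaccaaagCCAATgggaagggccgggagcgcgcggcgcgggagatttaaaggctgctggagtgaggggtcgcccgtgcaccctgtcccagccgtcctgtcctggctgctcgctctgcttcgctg

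An E2F word was found in 21 of the 47 windows (44.7%), against 3.31% of 35116 RefSeq windows of the same length and 9.09% of the windows of a list of mitotic genes. By role, all 6 licensing genes with a window had one (CDC6, CDT1, MCM2, MCM3, MCM6 and MCM7), as did 4 of 8 checkpoint and repair genes, 3 of 5 polymerase and primase genes, 2 of 4 clamp genes, 2 of 4 chromatin genes, and 1 of 3 genes each for origin firing, nucleotide supply and regulators. MCM6 held 4 words in overlapping pairs, E2F1 and MCM2 held 2 each, and POLE held 1. The word CCAAT was in 61.7% of the windows of the list, 78.8% of those of the mitotic genes and 34.6% of all windows. TTTGAA, the word of the cell cycle homology region (CHR) common in mitotic promoters, was in 4.26% of the windows of the list, 78.8% of those of mitotic genes and 15.2% of all. The words are matches of letters in these windows, searched on both strands, and describe no binding.

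The summed level of the 42 genes was highest in RG-like and lowest in neuron-like barcodes among the named types of each library. In cells it was 36.4 CP10K (36.2 to 36.6) in RG-like, 17.2 in IPC-like, 15.6 in hem-like, 14.3 in choroid plexus-like, 11.5 in Cajal-Retzius-like and 8.45 (8.30 to 8.61) in neuron-like barcodes. In nuclei it was 41.7 (41.4 to 41.9) in RG-like, 36.1 in IPC-like, 17.3 in hem-like, 14.3 in Cajal-Retzius-like, 9.07 in choroid plexus-like and 7.56 (7.43 to 7.69) in neuron-like barcodes. RG-like barcodes held 4.31-fold (4.23 to 4.39) more than neuron-like ones in cells and 5.51-fold (5.41 to 5.62) more in nuclei, and 3.88-fold and 5.26-fold more when the ratio was formed within first-round wells. The ratio was above 1 in all 5 wells of the cell library with enough barcodes of both types, from 1.78 to 7.22 with a median of 3.86, and in all 12 wells of the nuclei, from 2.95 to 8.24 with a median of 5.31. Barcodes of 10 to 100 transcripts, taken as free RNA, stood at 21.0 in cells and 24.6 in nuclei, between the RG-like and neuron-like levels, and its share in the levels of each type was not tested.

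The RG-like level differed more between wells than between sub-libraries, which are technical splits. Over the 8 sub-libraries of the cells it ran from 33.9 to 37.6 with a median of 37.0, and the 2 sub-libraries of the nuclei stood at 40.7 and 42.8. Over the 23 wells of the cells with enough RG-like barcodes it ran from 14.5 to 64.5 (median 40.4), and over the 12 wells of the nuclei from 23.8 to 60.1 (median 43.1). In neuron-like barcodes the wells lay between 7.13 and 9.84 in cells and between 6.72 and 9.45 in nuclei, with 8 of the 48 wells of the cells and all 12 of the nuclei holding enough neuron-like barcodes, and among the wells with values the RG-like and neuron-like ranges did not overlap in either library.

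**Figure D1:**
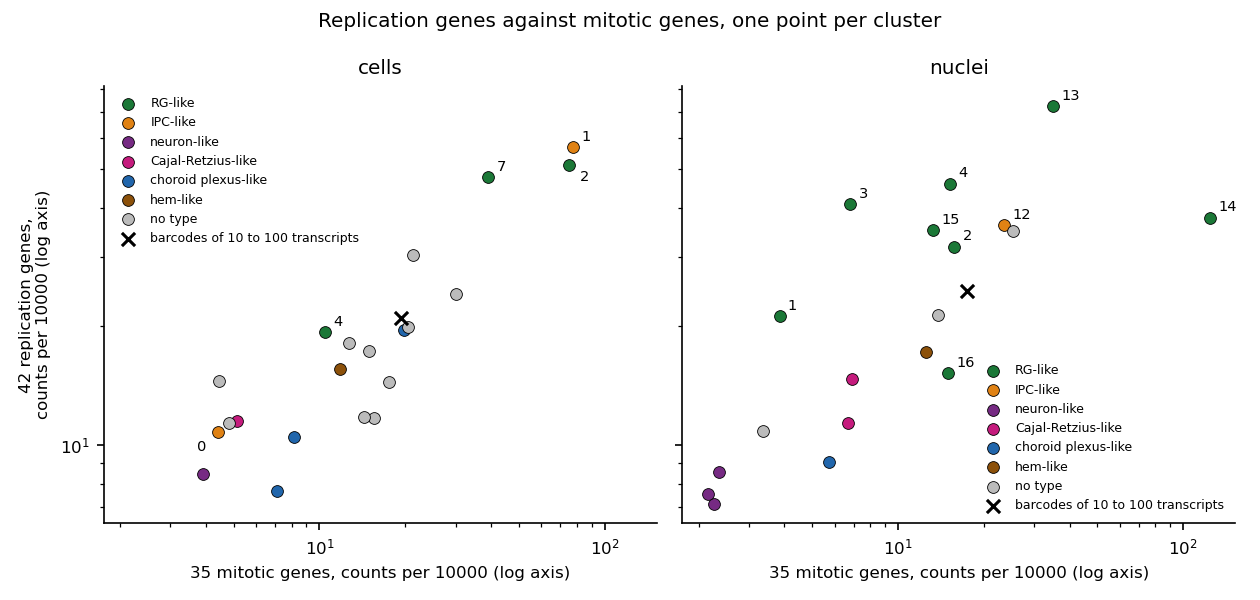
Summed level of the 42 replication genes (y axis) against that of 35 mitotic genes (x axis), both in counts per 10000 on log axes, with 1 point per cluster, coloured by type, and a cross for barcodes of 10 to 100 transcripts. Neuron-like clusters sit at the lower left in both libraries, while among the nuclei cluster 13 has the highest replication level (72.4) and cluster 14 the highest mitotic level (125).

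Of the 42 genes, 41 were at least 2-fold higher in RG-like than in neuron-like barcodes in each library, where 13.2% of 29526 genes in cells and 19.2% of 25358 in nuclei passed that limit. None was at least 2-fold lower, against 10% and 12% of all genes, and all 42 intervals lay above 1 in both libraries. The median ratio of the list was 6.12 in cells and 8.25 in nuclei, and that of all genes was 1.05 and 1.17. POLE, the catalytic subunit of the leading strand polymerase, was the gene below the limit in both libraries, and 40 genes in each library passed it within wells, where PRIM2 fell short in cells (1.82) and MCM7 in nuclei (1.99). No share over all genes was formed within wells, so the count of 40 has no background. The genes ranked alike in both libraries (Spearman rho 0.924 over the 42 genes, a description, since the genes share barcodes).

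The licensing genes, which build the helicase at origins, all passed the limit when wells were pooled. MCM2 stood at 0.362 CP10K in RG-like and 0.0362 in neuron-like cells, 10.0-fold higher (7.53 to 13.6), and at 0.248 and 0.0187 in nuclei, 13.3-fold (9.31 to 19.6). The level of MCM5 was 0.418 against 0.0543 CP10K in cells and 0.380 against 0.0356 in nuclei, with ratios of 7.70 (6.10 to 9.85) and 10.7 (8.24 to 14.0). For MCM3, RG-like cells held 0.576 CP10K and neuron-like cells 0.0688 (ratio 8.37, 6.81 to 10.4), while RG-like nuclei held 0.570 and neuron-like nuclei 0.0683 (ratio 8.35, 6.92 to 10.2). These 3 subunits of the MCM2 to MCM7 ring had the larger ratios of the ring in both libraries, and MCM6 and MCM7 had the smaller ones. MCM4 was 5.89-fold (4.86 to 7.19) higher in RG-like cells, at 0.486 CP10K over 0.0825, and 5.00-fold (4.06 to 6.2) higher in RG-like nuclei, at 0.297 over 0.0595. Neuron-like barcodes held 0.128 CP10K of MCM6 in cells and 0.0735 in nuclei, and RG-like barcodes 0.439 and 0.350, ratios of 3.43 (2.93 to 4.03) and 4.76 (3.95 to 5.78). MCM7 stood at 0.869 CP10K in RG-like and 0.370 in neuron-like cells, 2.35-fold higher (2.14 to 2.59), and at 0.449 and 0.202 in nuclei, 2.22-fold (1.97 to 2.50). The 6 subunits work as 1 complex, and the intervals of MCM2 and MCM7 did not overlap in either library. The level of CDT1 was 0.0929 against 0.00941 CP10K in cells and 0.0496 against 0.00350 in nuclei, with ratios of 9.87 (5.68 to 18.8) and 14.2 (6.35 to 39.2). For CDC6, RG-like cells held 0.307 CP10K and neuron-like cells 0.0615 (ratio 4.98, 3.99 to 6.30), while RG-like nuclei held 0.210 and neuron-like nuclei 0.0263 (ratio 8.02, 5.92 to 11.1). CDC6 and CDT1 load the ring, and CDT1 rested on 13 and 6 transcripts in the neuron-like barcodes.

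Among the genes of origin firing, CDC45 and MCM10 had some of the largest ratios of the list. CDC45 was 17.8-fold (12.4 to 26.5) higher in RG-like cells, at 0.387 CP10K over 0.0217, and 18.0-fold (13.4 to 24.8) higher in RG-like nuclei, at 0.473 over 0.0263. MCM10, which joins the helicase as it fires, had ratios of 13.5 in cells and 15.3 in nuclei, and GINS2, a subunit of the GINS complex, of 3.94 in cells and 7.57 in nuclei. The polymerase and primase genes had the smallest ratios of any role, with a median over 5 genes of 2.34 in cells and 3.23 in nuclei. Neuron-like barcodes held 1.91 CP10K of POLA1 in cells and 2.11 in nuclei, and RG-like barcodes 4.82 and 7.07, ratios of 2.52 (2.42 to 2.63) and 3.35 (3.23 to 3.47). PRIM2 stood at 1.58 CP10K in RG-like and 0.761 in neuron-like cells, 2.07-fold higher (1.94 to 2.22), and at 2.37 and 1.01 in nuclei, 2.36-fold (2.24 to 2.49). The level of POLE was 1.38 against 0.767 CP10K in cells and 1.31 against 0.680 in nuclei, with ratios of 1.80 (1.68 to 1.93) and 1.92 (1.80 to 2.06). POLA1 and PRIM2 are the catalytic subunit of polymerase alpha and the large primase subunit, and their levels in neuron-like cells lay below those in barcodes of 10 to 100 transcripts (3.32 and 0.982). The same held for every gene of the list in both libraries. The remaining subunits were PRIM1, the small primase subunit (2.34 in cells and 3.23 in nuclei), and POLA2, the accessory subunit of polymerase alpha (3.50 in cells and 7.37 in nuclei).

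Clamp and lagging strand genes were intermediate, with median ratios of 3.05 in cells and 5.20 in nuclei over 4 genes. For PCNA, RG-like cells held 0.265 CP10K and neuron-like cells 0.0927 (ratio 2.86, 2.37 to 3.47), while RG-like nuclei held 0.159 and neuron-like nuclei 0.0309 (ratio 5.16, 3.87 to 6.99). PCNA encodes the sliding clamp, and RFC3 and RFC4, subunits of the loader that opens it, had ratios of 2.86 in cells and 5.25 in nuclei and of 3.24 in cells and 4.03 in nuclei. FEN1, the flap nuclease of the lagging strand, had ratios of 8.59 in cells and 7.54 in nuclei on 9 and 5 neuron-like transcripts. PCNA, FEN1, RFC3 and PRIM2 have near-identical copies in the gene table, so reads may be divided between them. Nucleotide supply was led by RRM2, the regulated subunit of ribonucleotide reductase. RRM2 was 14.3-fold (12.5 to 16.5) higher in RG-like cells, at 2.30 CP10K over 0.161, and 18.1-fold (16.2 to 20.4) higher in RG-like nuclei, at 3.18 over 0.175. Neuron-like barcodes held 0.0478 CP10K of TYMS in cells and 0.0158 in nuclei, and RG-like barcodes 0.263 and 0.208, ratios of 5.51 (4.28 to 7.19) and 13.2 (9.0 to 20.2). TYMS, thymidylate synthase, had the larger ratio in nuclei, with intervals that did not overlap, and RRM1, the other reductase subunit, had smaller ratios than RRM2 (3.31 in cells and 3.53 in nuclei).

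All 5 chromatin genes passed the limit in both libraries. HELLS stood at 3.02 CP10K in RG-like and 0.334 in neuron-like cells, 9.04-fold higher (8.23 to 9.95), and at 2.54 and 0.286 in nuclei, 8.88-fold (8.10 to 9.75). The level of ATAD2 was 1.81 against 0.285 CP10K in cells and 1.54 against 0.148 in nuclei, with ratios of 6.36 (5.74 to 7.06) and 10.5 (9.21 to 11.9). For UHRF1, RG-like cells held 0.761 CP10K and neuron-like cells 0.138 (ratio 5.53, 4.77 to 6.45), while RG-like nuclei held 0.465 and neuron-like nuclei 0.0735 (ratio 6.33, 5.27 to 7.66). HELLS is a chromatin remodeller, ATAD2 a bromodomain ATPase and UHRF1 the factor that brings maintenance methylation to new DNA. The subunits of the CAF-1 histone chaperone, CHAF1A (3.89 in cells and 6.01 in nuclei) and CHAF1B (2.82 in cells and 6.69 in nuclei), had higher ratios in nuclei than in cells. This was not particular to them, since the summed list also had the higher ratio in nuclei (5.51 against 4.31).

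The 9 checkpoint and repair genes had a median ratio of 9.50 in cells and 14.5 in nuclei, with 4.08 and 6.83 as the lowest, both of FANCI. CLSPN was 8.63-fold (7.12 to 10.5) higher in RG-like cells, at 0.687 CP10K over 0.0796, and 14.8-fold (11.8 to 18.7) higher in RG-like nuclei, at 0.691 over 0.0467. Neuron-like barcodes held 0.0825 CP10K of DTL in cells and 0.0922 in nuclei, and RG-like barcodes 0.849 and 1.17, ratios of 10.3 (8.52 to 12.5) and 12.6 (10.8 to 14.9). BRIP1 stood at 1.91 CP10K in RG-like and 0.201 in neuron-like cells, 9.50-fold higher (8.42 to 10.8), and at 2.64 and 0.182 in nuclei, 14.5-fold (13.0 to 16.3). Claspin relays the replication checkpoint, DTL marks CDT1 for destruction during S phase, and BRIP1 is a helicase of fork repair. The level of BRCA1 was 1.27 against 0.198 CP10K in cells and 1.5 against 0.164 in nuclei, with ratios of 6.42 (5.68 to 7.29) and 9.14 (8.10 to 10.3). For BRCA2, RG-like cells held 0.704 CP10K and neuron-like cells 0.0724 (ratio 9.72, 7.95 to 12.0), while RG-like nuclei held 0.794 and neuron-like nuclei 0.0531 (ratio 14.9, 12.1 to 18.6). FANCI was 4.08-fold (3.69 to 4.51) higher in RG-like cells, at 1.28 CP10K over 0.315, and 6.83-fold (6.2 to 7.55) higher in RG-like nuclei, at 1.76 over 0.257. The last 3 serve homologous recombination and crosslink repair. EXO1, an exonuclease, had the largest ratio of the list in nuclei (10.8 in cells and 24.5 in nuclei), RAD51AP1 had 12.2 in cells and 15 in nuclei, and FANCD2, the partner of FANCI, 7.14 in cells and 8.85 in nuclei.

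The regulators are the activator E2F1, the repressors E2F7 and E2F8, which shut off E2F targets late in S phase and in G2, and the E cyclins. Neuron-like barcodes held 0.0290 CP10K of E2F1 in cells and 0.0303 in nuclei, and RG-like barcodes 0.257 and 0.247, ratios of 8.88 (6.46 to 12.5) and 8.14 (6.14 to 11.0). E2F7 stood at 0.767 CP10K in RG-like and 0.0557 in neuron-like cells, 13.8-fold higher (11.0 to 17.5), and at 0.766 and 0.0443 in nuclei, 17.3-fold (13.7 to 22.0). The level of E2F8 was 0.196 against 0.0138 CP10K in cells and 0.151 against 0.00700 in nuclei, with ratios of 14.3 (9.07 to 23.9) and 21.6 (12.2 to 42.1). Both repressors had larger ratios than E2F1 in both libraries, with intervals that overlapped those of E2F1 in cells and did not in nuclei. For CCNE1, RG-like cells held 0.0416 CP10K and neuron-like cells 0.0130 (ratio 3.19, 1.94 to 5.57), while RG-like nuclei held 0.0321 and neuron-like nuclei 0.00875 (ratio 3.67, 2.11 to 6.82). CCNE2 was 4.76-fold (3.25 to 7.23) higher in RG-like cells, at 0.0999 CP10K over 0.0210, and 9.78-fold (6.0 to 17.0) higher in RG-like nuclei, at 0.0970 over 0.00992. The E cyclins were sparse, with 18 and 15 neuron-like transcripts of CCNE1 and 29 and 17 of CCNE2, and their intervals were wide.

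**Figure D2:**
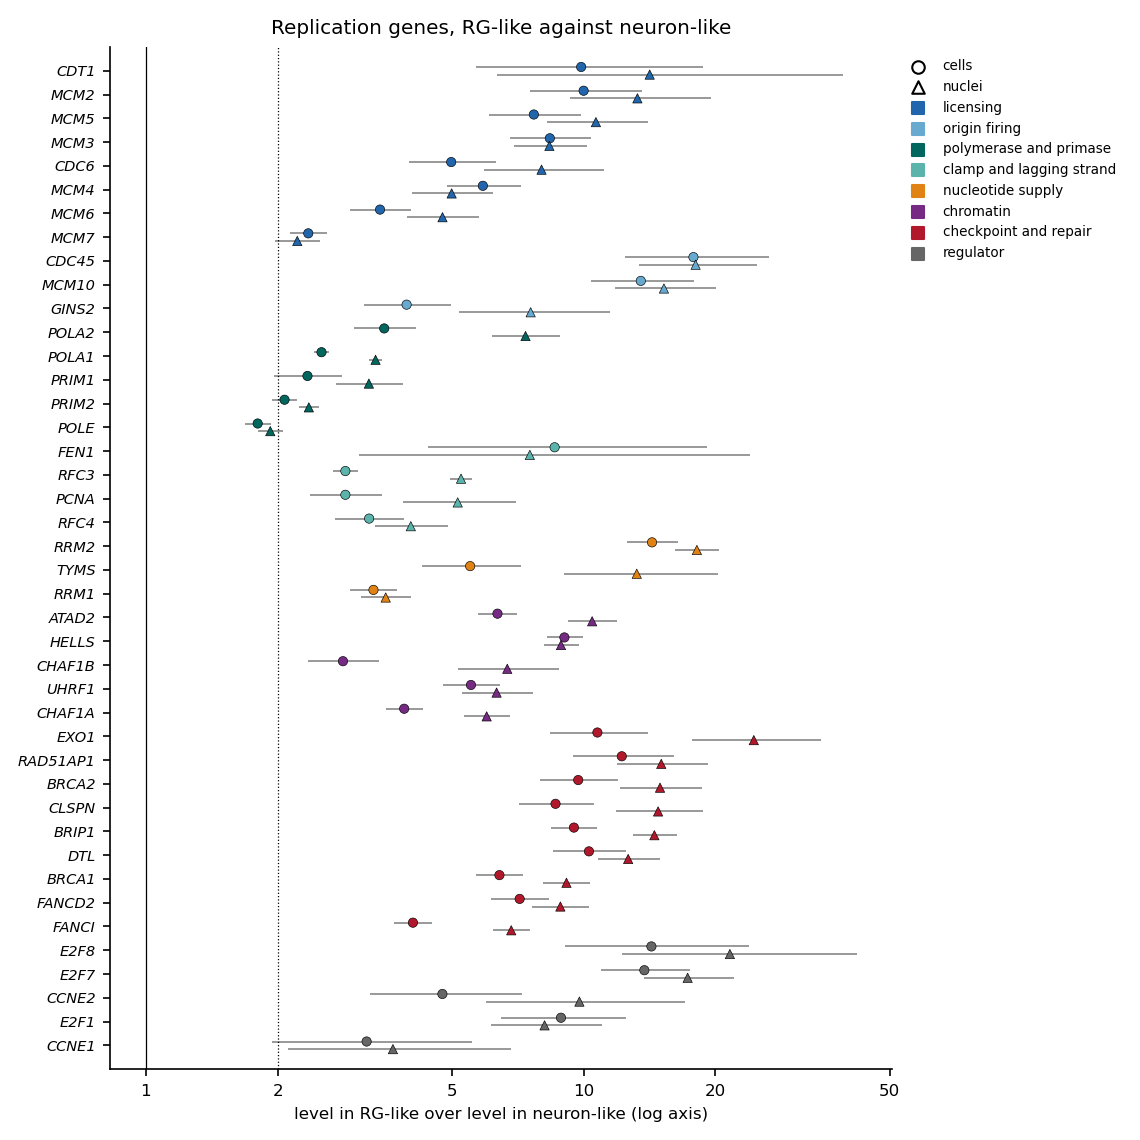
Ratio of the level in RG-like to that in neuron-like barcodes for each of the 42 genes (log axis), with circles for cells, triangles for nuclei, colours for roles and bars for 95% counting intervals. All points lie right of the line at 1, POLE lies left of the dotted line at 2 in both libraries (1.80 and 1.92), and the polymerase and primase genes have the lowest median of the roles (2.34 and 3.23).

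Of related genes outside the list, from lists chosen by function, smaller parts passed the limit, apart from the mitotic genes. Of 37 other replication factors, 19 in cells and 25 in nuclei were at least 2-fold higher in RG-like barcodes and 0 lower, with TICRR, which helps to activate origins, at 9.93 and 13.4 and the origin recognition subunit ORC4 at 1.18 and 1.10. Of 14 other repair and checkpoint genes 8 and 10 passed, from ATR at 1.14 and 1.36 to XRCC2 at 12.1 and 20.3. Of 13 genes of nucleotide and chromatin supply 9 and 10 passed, with thymidine kinase TK1 at 8.28 and 21.5. Of 19 genes of G1 control 10 passed in each library, with the activator E2F2 at 18.8 and 13.0, and 1 was at least 2-fold lower in nuclei, the inhibitor CDKN1C at 0.326, which stood at 0.789 in cells. All 35 mitotic genes passed in both libraries, with medians of 10.6 and 16.5. Of the 65 replication-dependent histone genes, most of which lack poly(A) tails, 50 had enough counts in each library and 41 and 46 of them passed.

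Per barcode, replication genes were detected in part of the RG-like population at an even depth. After every barcode was thinned to 1000 transcripts, 49.8% (48.2 to 51.4) of RG-like cells and 51.4% (50.2 to 52.6) of RG-like nuclei held at least 3 transcripts of the list and are called replication-positive. The share was 7.53% (6.19 to 9.06) in neuron-like cells and 5.73% (4.98 to 6.55) in neuron-like nuclei. The list was not absent there, as 54.3% of neuron-like cells and 48.3% of neuron-like nuclei held at least 1 of its transcripts after thinning. POLA1 alone made up 1.91 of the summed 8.45 CP10K in neuron-like cells and 2.11 of 7.56 in neuron-like nuclei. The class counts transcripts and does not by itself place a barcode in S phase. Median depths before thinning were 5399.5 and 3536.5 transcripts in RG-like and 6743 and 4121 in neuron-like cells and nuclei, and the unthinned shares were 87.7% and 80.1% against 72.1% and 49.8%. IPC-like barcodes differed between the libraries, with 18.7% in cells and 43.8% in nuclei. In cells the IPC-like type joined cluster 0, with 1221 barcodes and a summed level of 10.8, and cluster 1, with 133 barcodes and 56.9, whereas in nuclei it was cluster 12 alone at 36.1. Cluster 0 of the cells shared the leading genes EBF2, LZTS1, PLXNA4, CHST8 and CNTN2 with nuclear cluster 11, whose 915 nuclei were named neuron-like. The IPC-like type may thus be drawn differently in cells and nuclei, and its shares and levels are not a like comparison between the libraries. Of the barcodes without a type, 27.4% (26.5 to 28.2) of the cells and 28.8% (26.4 to 31.3) of the nuclei were replication-positive, so such barcodes also lay outside the named types. Among the wells the share of replication-positive RG-like barcodes ran from 17.8% to 88.1% over 23 wells of the cells (median 53.9%) and from 28.7% to 77.5% over 12 wells of the nuclei (median 54.1%).

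To relate the list to mitosis, RG-like barcodes with at least 3 transcripts of the 35 mitotic genes after thinning were called mitosis-positive, 35.1% of cells and 26.5% of nuclei. The 35 genes include MKI67, CENPF and TOP2A, at 4.54, 4.79 and 2.68 CP10K in RG-like cells. The paper lists these 3 under a joint G2 and M phase, so the class is not of mitosis alone. Both programmes were present in 23.5% of RG-like cells and 20.8% of RG-like nuclei, replication genes alone in 26.3% and 30.6%, mitotic genes alone in 11.6% and 5.68%, and neither in 38.6% and 42.9%. Replication-positive barcodes were 67% (64.3 to 69.5) of mitosis-positive and 40.5% (38.5 to 42.6) of mitosis-negative cells, a ratio of 1.65, and 78.6% (76.6 to 80.4) and 41.7% (40.3 to 43.0) of nuclei, a ratio of 1.89. Within wells the ratios were 1.37 and 1.63, and the ratio was above 1 in 12 of 19 wells of the cells (0.687 to 3.36, median 1.18) and in 12 of 12 wells of the nuclei (1.24 to 3.67, median 1.73). The wells of the cell library did not share 1 direction. Mitosis-positive barcodes were somewhat deeper, with medians of 5945.5 against 5162 transcripts in cells and 4482 against 3308 in nuclei. With only barcodes above 5000 transcripts the ratio of shares was 1.70 and 1.46 in cells and nuclei, and with a limit of 2000 transcripts 1.70 and 1.77.

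The list was uneven in this comparison. At least 2-fold higher levels in mitosis-positive RG-like barcodes were found for 10 genes in cells and 9 in nuclei, against 3.4% and 2.89% of all genes, and at least 2-fold lower levels for 0 genes in either, against 6.16% and 9.37%. The first count depends on the depth at which barcodes were classed, with 22 and 28 genes without thinning and 18 and 20 after thinning to 2000 transcripts. The median ratio of the list was 1.45 in cells and 1.41 in nuclei, and that of all genes 0.911 and 0.899. Within wells, 4 genes passed the limit in each library, and they were the same 4, RRM2, RAD51AP1, E2F7 and E2F8. No share over all genes was formed within wells or at the other depths, so those counts cannot be set against a background. Ratios below 1 were found for 5 genes in cells and 11 in nuclei when wells were pooled, and for 12 genes in each library within wells. The pooled ratios ranked alike in both libraries (rho 0.915 over the 42 genes).

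The 4 genes at the upper end belong to different roles. E2F8 stood at 0.396 in mitosis-positive and 0.0688 in mitosis-negative cells, a ratio of 5.76 (4.72 to 7.07), and at 0.310 and 0.0713 in nuclei, 4.35 (3.54 to 5.37), with 4.36 and 3.66 within wells. RRM2 stood at 4.28 in mitosis-positive and 1.04 in mitosis-negative cells, a ratio of 4.14 (3.92 to 4.36), and at 6.25 and 1.63 in nuclei, 3.83 (3.67 to 4.00), with 3.27 and 3.15 within wells. E2F8 lies at chr11:19224063-19241620 (minus strand) and RRM2 at chr2:10120698-10211725 (plus), and both stood above every other gene of the list in each library. RAD51AP1 stood at 0.899 in mitosis-positive and 0.310 in mitosis-negative cells, a ratio of 2.90 (2.61 to 3.21), and at 1.10 and 0.412 in nuclei, 2.67 (2.43 to 2.93), with 2.29 and 2.32 within wells. E2F7 stood at 1.24 in mitosis-positive and 0.463 in mitosis-negative cells, a ratio of 2.68 (2.46 to 2.92), and at 1.26 and 0.520 in nuclei, 2.42 (2.22 to 2.64), with 2.18 and 2.15 within wells. RAD51AP1, a factor of recombination repair, lies at chr12:4538798-4560047 and E2F7 at chr12:77021248-77065569. Of the other genes past the limit without regard to wells, FANCD2 had ratios of 2.39 (2.21 to 2.58) in cells and 2.26 (2.10 to 2.44) in nuclei, and FANCI, ATAD2, BRCA2 and EXO1 lay between 2.07 and 2.27, while BRIP1 passed in cells (2.01) and not in nuclei (1.94).

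Of the licensing genes, MCM2 to MCM7 were at the lower end, with barcodes classed after thinning to 1000 transcripts, while CDC6 and CDT1 were not so throughout. MCM6 stood at 0.380 in mitosis-positive and 0.477 in mitosis-negative cells, a ratio of 0.796 (0.708 to 0.893), and at 0.254 and 0.398 in nuclei, 0.637 (0.549 to 0.736), with 0.609 and 0.541 within wells. MCM5 stood at 0.405 in mitosis-positive and 0.426 in mitosis-negative cells, a ratio of 0.952 (0.847 to 1.07), and at 0.264 and 0.438 in nuclei, 0.603 (0.522 to 0.695), with 0.724 and 0.524 within wells. Both intervals of MCM6 lay below 1, as did that of MCM5 in nuclei but not in cells. MCM3 had ratios of 0.932 (0.845 to 1.03) in cells and 0.853 (0.766 to 0.949) in nuclei, MCM2 of 0.992 (0.876 to 1.12) in cells and 0.894 (0.759 to 1.05) in nuclei and MCM4 of 1.02 (0.919 to 1.14) in cells and 0.846 (0.727 to 0.981) in nuclei. MCM7, the most abundant of the ring in cells, went the other way there, with 1.14 (1.05 to 1.23) in cells and 0.951 (0.844 to 1.07) in nuclei, and with 0.95 and 0.883 within wells. CDC6 was higher in mitosis-positive barcodes, with 1.20 (1.05 to 1.37) in cells and 1.43 (1.21 to 1.69) in nuclei, but its ratio within wells was 0.940 in cells and 1.27 in nuclei. CDT1 had 1.44 (1.13 to 1.84) in cells and 0.808 (0.548 to 1.17) in nuclei, the latter interval including 1. Cyclin CCNE1 stood near 1, with 0.942 (0.641 to 1.37) in cells and 0.963 (0.601 to 1.51) in nuclei, and GINS2 at 1.01 (0.872 to 1.18) in cells and 0.777 (0.612 to 0.979) in nuclei. The median ratio of all genes, given above, also lay below 1 in both libraries. In nuclei the intervals of MCM2, MCM3, MCM4 and MCM7 held that median, and those of MCM5 and MCM6 lay below it. In cells only MCM6 of the ring had an interval below it. No value over all genes was formed within wells.

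Summed by role, licensing genes had a ratio of 1.02 (0.977 to 1.06) in cells and 0.838 (0.797 to 0.882) in nuclei, and 0.815 and 0.746 within wells. Checkpoint and repair genes had 2.01 (1.96 to 2.06) and 1.94 (1.90 to 1.98), and 1.56 and 1.65 within wells. The checkpoint and repair ratio was larger than the licensing ratio in 19 of 19 wells of the cells and 12 of 12 of the nuclei, where their quotient ran from 1.10 to 2.85 and from 1.81 to 3.80. By itself the licensing ratio was above 1 in 5 of the 19 wells and 4 of the 12, and the checkpoint and repair ratio in 15 of the 19 (0.908 to 3.57) and 12 of the 12, so the direction of both varied between wells of the cells while their order did not. Without thinning the licensing ratio was 1.32 and 1.53 in cells and nuclei, and after thinning to 2000 transcripts 1.31 and 1.11, all above 1. Checkpoint and repair stood at 3.44 and 4.11 without thinning and at 2.81 and 2.66 at 2000 transcripts, so the levels of both ratios move with the depth of classing while their order held. Nucleotide supply had 2.97 and 3.19, a sum in which RRM2 made up most of the transcripts, while RRM1 had 1.45 (1.33 to 1.58) in cells and 1.54 (1.39 to 1.71) in nuclei and TYMS 1.58 (1.37 to 1.82) in cells and 1.54 (1.30 to 1.81) in nuclei. The regulators had 2.33 and 2.05, with E2F7 and E2F8 above and E2F1 at 1.22 (1.05 to 1.41) in cells and 0.933 (0.793 to 1.10) in nuclei, and the polymerase and primase genes had 1.26 and 1.22. Within wells E2F1 stood at 0.888 in cells and 0.786 in nuclei, so its side of 1 changed in cells. The replication-dependent histones, which are not in the list, had 2.15 (2.05 to 2.24) and 2.10 (1.98 to 2.22). Of the 37 other replication factors, 2 in cells and 4 in nuclei passed the 2-fold limit, TICRR (3.59 and 3.65) and DBF4, the activator of the CDC7 kinase (2.57 and 2.92), in both.

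**Figure D3:**
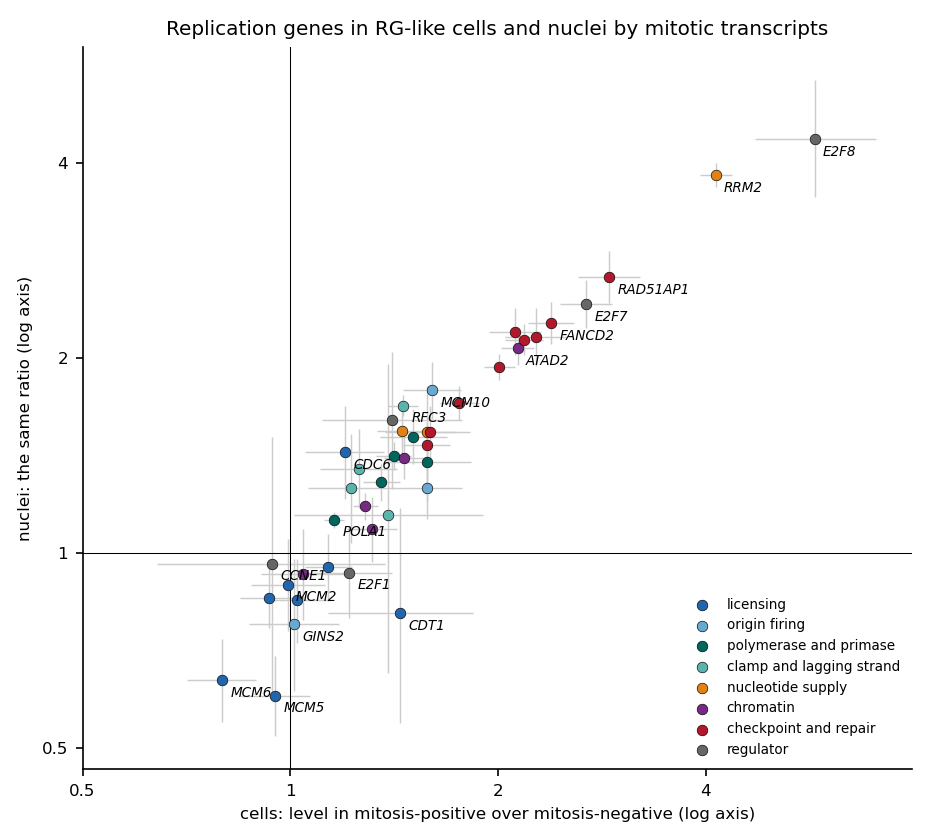
Ratio of the level in mitosis-positive to that in mitosis-negative RG-like barcodes for each of the 42 genes, cells on the x axis and nuclei on the y axis (log axes), with colours for roles and bars for 95% counting intervals. The points follow the diagonal, with MCM6 (0.796 and 0.637) and MCM5 (0.952 and 0.603) at the lower left and RRM2 (4.14 and 3.83) and E2F8 (5.76 and 4.35) at the upper right.

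A similar but not identical order appeared when RG-like barcodes with replication genes alone were set against mitosis-positive ones, with each gene left out of the count that placed its own barcodes. The smallest ratios were those of E2F8 (0.332 in cells and 0.439 in nuclei), RRM2 (0.493 and 0.517), E2F7 (0.632 and 0.663), RAD51AP1 (0.672 and 0.697) and FANCD2 (0.770 and 0.809), the same 5 in both libraries. The largest in cells were MCM6 (2.06), MCM3 (1.97), CCNE1 (1.88), MCM5 (1.87) and MCM2 (1.73), and in nuclei MCM5 (2.68), MCM6 (2.31), CDT1 (2.29), GINS2 (2.09) and MCM4 (1.91). This comparison reuses the barcodes and the mitotic counts of the previous one and is not separate evidence of the order.

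The RG-like clusters of the nuclei show how the roles combine, as a description, since cluster membership and the levels come from the same barcodes. Cluster 13 had the highest summed level of the list, 72.4 CP10K, with mitotic genes at 35.1, and RRM2, EXO1, BRIP1 and CDC45 were among its leading genes. Cluster 14 had mitotic genes at 125 and the list at 37.7, with licensing genes at 0.991 against 3.39 in cluster 13 and checkpoint and repair genes at 11.1 against 20.3. Cluster 3 had little mitotic RNA, 6.82, with the list at 40.8 and licensing genes at 3.51. As 53.9% of its barcodes came from 1 well, its values without that well were 46.0 for the list and 4.11 for licensing genes. Cluster 1, with mitotic genes at 3.85, stood at 21.2, and cluster 16, the heat-shock cluster, at 15.2, the lowest level among these clusters. In the cells, clusters 2 and 7 stood at 51.4 and 47.8 for the list with mitotic genes at 75.1 and 39.1, and cluster 4 at 19.4 with mitotic genes at 10.5.

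**Figure D4:**
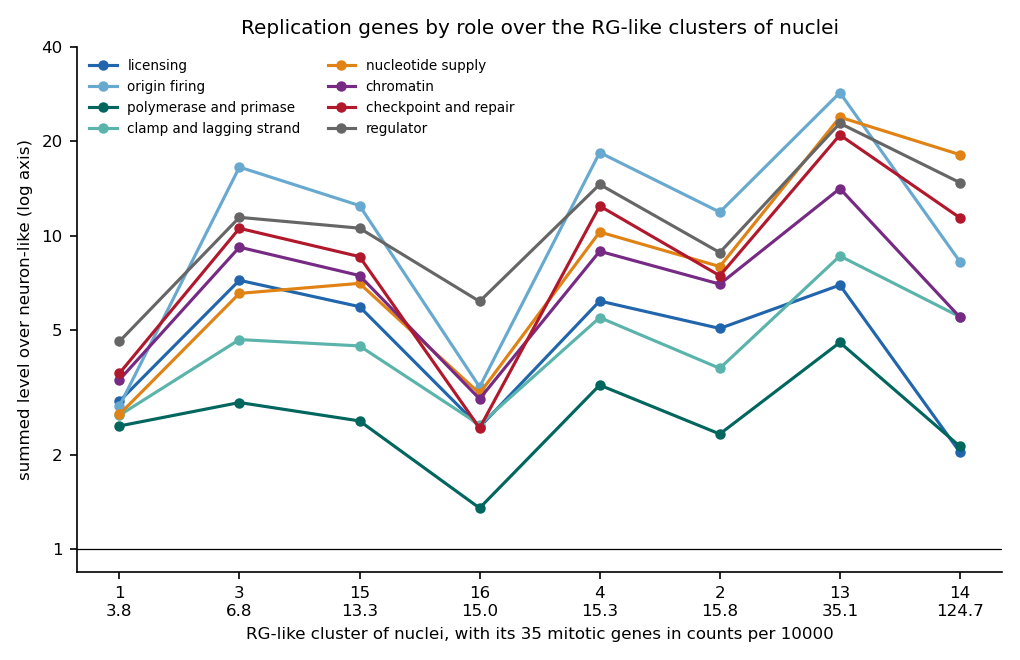
Summed level of each role in the 8 RG-like clusters of nuclei divided by its level in neuron-like nuclei (log axis), with clusters ordered along the x axis by their mitotic level in counts per 10000, printed under each cluster number. All roles peak in cluster 13 apart from licensing, which is slightly higher in cluster 3 (3.51 CP10K against 3.39), and licensing stands at 0.991 CP10K in cluster 14, the most mitotic.

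Cells and nuclei were compared within the RG-like type, although the libraries also differed in organoid days, treatments and preparation, which cannot be told apart from the compartment. The type may also be drawn differently. In nuclei it included clusters 4 and 16, which passed 6 glycolysis markers each, and cluster 15. In cells no type was given to cluster 5, with SOX2 and VIM among its leading genes, or to cluster 8, which shared ADAMTS19 and SV2C with RG-like cluster 7. The RG-like cells and nuclei are thus not matched populations. None of the 42 genes was at least 2-fold higher in nuclei (1.04% of 29301 genes were) and 1, FEN1, was at least 2-fold lower (30.8% of all genes were). The median ratio of nuclei to cells was 0.954 for the list and 0.701 for all genes. RFC3, with a gene of 148 kb at chr13:33818069-33966558, had the highest ratio, at 4.17 in nuclei and 2.12 in cells, a ratio of 1.96 (1.90 to 2.02). PRIM2 (chr6:57314805-57646850) stood at 2.37 in nuclei and 1.58 in cells, a ratio of 1.5 (1.45 to 1.56), and POLA1 (chrX:24693873-24996986) at 7.07 in nuclei and 4.82 in cells, a ratio of 1.47 (1.43 to 1.5). BRIP1 and RRM2 followed with ratios of 1.38 each. At the other end, FEN1, a gene of 4.33 kb at chr11:61792911-61797238, stood at 0.0220 in nuclei and 0.0559 in cells, a ratio of 0.393 (0.289 to 0.528). MCM7 stood at 0.449 in nuclei and 0.869 in cells, a ratio of 0.517 (0.483 to 0.552), GINS2 had a ratio of 0.522, CDT1 0.533 and PCNA 0.602. These 5 genes are among the shorter genes of the list and the 5 highest are among the longer. Length here is the whole span of the annotated gene, and single transcripts may be shorter. For example, BRCA1, with a span of 126 kb, also had an annotated start inside that span.

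Over the 42 genes the ratio went with gene length (Spearman rho 0.722, Pearson r 0.759 on log scales), and over 29114 genes it did so less (rho 0.215, r 0.209). These are correlations over genes of 1 pair of libraries, in which genes share depth and barcodes. Of the 13 members of 60 kb or more, 10 had a ratio above 1, with a median of 1.37. Of the 16 members from 20 to 60 kb 6 did, with a median of 0.982, and of the 13 members under 20 kb 0 did, with a median of 0.686. Of all genes, 2880 of 8210 of 60 kb or more and 2155 of 12432 under 20 kb had a ratio above 1. The median over all genes was 0.864 for those of 60 kb or more and 0.621 for those under 20 kb. UHRF1, of 59.1 kb, departed from this order with a ratio of 0.612 (0.571 to 0.655), and RAD51AP1, of 21.2 kb, with 1.19 (1.11 to 1.27). Summed by role, the ratio did not follow length throughout, from 0.720 (0.698 to 0.741) for licensing and 0.813 (0.797 to 0.830) for chromatin genes to 1.37 (1.35 to 1.40) for polymerase and primase genes and 1.68 (1.63 to 1.73) for clamp and lagging strand genes. The last sum was carried by RFC3, since PCNA, RFC4 and FEN1 are under 20 kb with ratios below 1. In neuron-like barcodes RFC3 had a ratio of 1.07 (0.984 to 1.16), below its RG-like value, and PRIM2 1.32 (1.22 to 1.43).

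**Figure D5:**
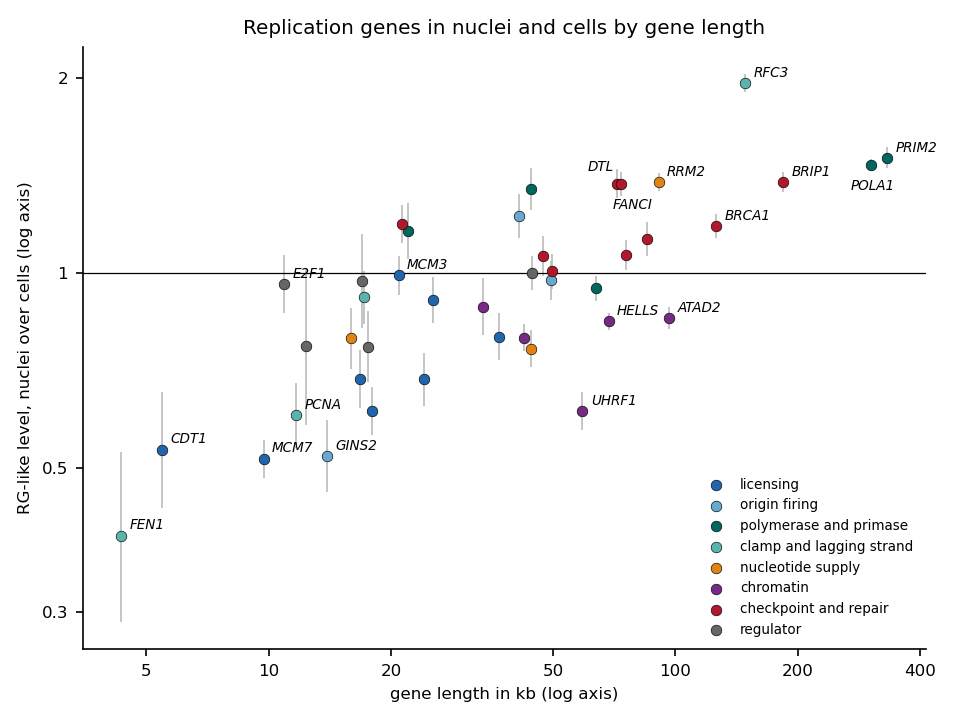
Ratio of the RG-like level in nuclei to that in cells (y axis) against gene length in kb (x axis) for the 42 genes, on log axes, with colours for roles and bars for 95% counting intervals. FEN1 and CDT1, the shortest genes, lie at 0.393 and 0.533, and RFC3, PRIM2 and POLA1 lie at 1.96, 1.5 and 1.47.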

How the data were processed

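The authors' tables are output of the Parse Biosciences software on GRCh38, and their barcode names show 8 sub-libraries of cells and 2 of nuclei. The deposited values are unfiltered counts, 1 for each distinct transcript of a gene in a barcode, without normalization or removal of free RNA, so free RNA adds to every barcode. The total count was 254967545 transcripts in cells and 82339738 in nuclei. The 42 genes, the related lists and the rules were chosen with earlier results of these data known, and the limits for naming clusters were set after the clusters had been seen. Barcodes were filtered as given above, scaled to 10000, log-transformed and clustered with scanpy 1.11.5 and igraph 0.11.9 (2000 variable genes without the 42 genes, the mitotic genes and the other listed cycle genes, 30 components, 15 neighbours, Leiden resolution 1, seed 0). A cluster of at least 50 barcodes was named X-like when 3 or more markers of a type exceeded their mean outside the cluster by 1.5-fold and were found in 10% of its barcodes, with a mean log2 ratio of the type's markers of at least 0.45. Scrublet, with expected rates of 5% and 3%, marked 0 barcodes in each library and thus had not worked, so doublets were kept and the 1009 and 427 highest scores were left out as an alternative. Genes needed at least 10 transcripts over both groups to be counted in a ratio. Poisson, binomial and ratio intervals are exact, and values within wells are Mantel-Haenszel ratios over first-round wells. Wells entered the per-well ranges with at least 50 barcodes of the type or, for ratios by mitotic transcripts, 20 of each class. Gene positions came from GENCODE release 44, matched by Ensembl identifier for all 42 genes, and promoter windows from RefSeq. Described in full were the genes named in the plan (27 of the list) and the ends of each ratio. Steps were tested on simulated data. The planned count test of CO against DISS and CONS was left out, since barcodes carry no organoid. Alternatives were other limits on barcodes, doublets, clustering, thinning, transcripts and fold. Leaving out clusters 15 and 16, barcodes up to 5000 transcripts or the well with most RG-like barcodes, and values within wells, were choices made after the data had been seen. Intervals used scipy 1.17.1, arrays numpy 2.4.6, tables pandas 2.3.3 and figures matplotlib 3.10.9, under Python 3.11.15.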

Additional observations from a re-analysis of the deposited data

How the results depend on the processing

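With 1 sample a library, only counting error, wells and the choices of processing could be examined, and depth limits the sparse genes CCNE1, CDT1, E2F8 and FEN1. No paired analysis was possible because each library is 1 sample and barcodes carry no organoid or replicate number. The count of genes at least 2-fold higher in RG-like than neuron-like barcodes stayed between 39 and 42 in cells and between 41 and 42 in nuclei over 13 alternatives each, and was 40 in each library with values formed within wells. No share over all genes was formed under any alternative, so this count and those of genes below cannot be set against a background. Checkpoint and repair genes had a larger ratio by mitotic transcripts than licensing genes under all 13 alternatives in each library. The ratio of summed levels between RG-like and neuron-like barcodes became 3.85 with a limit of 700 transcripts, 3.92 with the highest doublet scores left out, 4.01 with Leiden resolution 0.5, 4.16 with Leiden resolution 2, 4.39 with only barcodes above 5000 transcripts and 3.88 with values formed within wells in cells, and 6.10 with a limit of 2000 transcripts, 6.31 with the highest doublet scores left out, 5.72 with Leiden resolution 0.5, 6.05 with cycle genes kept in the clustering, 5.66 with random seed 1, 5.83 with nuclear clusters 15 and 16 left out, 5.96 with only barcodes above 5000 transcripts, 5.84 with the well with most RG-like barcodes left out and 5.26 with values formed within wells in nuclei. The share of replication-positive RG-like barcodes became 47.8% with a mitochondrial limit of 10%, 51.7% with Leiden resolution 0.5, 52.6% with Leiden resolution 2, 87.7% with no thinning, 73.4% with thinning to 2000 transcripts, 65.3% with a limit of 2 member transcripts, 29.2% with a limit of 5 member transcripts and 51.7% with the well with most RG-like barcodes left out in cells, and 54.4% with a limit of 2000 transcripts, 49.9% with a mitochondrial limit of 10%, 49.5% with Leiden resolution 2, 80.1% with no thinning, 74.7% with thinning to 2000 transcripts, 65.5% with a limit of 2 member transcripts, 33.6% with a limit of 5 member transcripts, 54.0% with nuclear clusters 15 and 16 left out, 64.6% with only barcodes above 5000 transcripts and 54.4% with the well with most RG-like barcodes left out in nuclei. The ratio of these shares by mitotic transcripts became 1.43 with a mitochondrial limit of 10%, 1.48 with Leiden resolution 0.5, 1.31 with Leiden resolution 2, 1.31 with no thinning, 1.5 with thinning to 2000 transcripts, 1.45 with a limit of 2 member transcripts, 1.97 with a limit of 5 member transcripts and 1.37 with values formed within wells in cells, and 1.77 with a limit of 2000 transcripts, 1.45 with no thinning, 1.51 with thinning to 2000 transcripts, 1.55 with a limit of 2 member transcripts, 2.23 with a limit of 5 member transcripts, 1.78 with nuclear clusters 15 and 16 left out, 1.46 with only barcodes above 5000 transcripts and 1.63 with values formed within wells in nuclei. The count of genes at least 2-fold higher in mitosis-positive barcodes became 6 with a limit of 700 transcripts, 5 with Leiden resolution 0.5, 5 with Leiden resolution 2, 22 with no thinning, 18 with thinning to 2000 transcripts, 18 with a fold limit of 1.5 and 4 with values formed within wells in cells, and 28 with no thinning, 20 with thinning to 2000 transcripts, 18 with a fold limit of 1.5, 5 with nuclear clusters 15 and 16 left out, 4 with only barcodes above 5000 transcripts and 4 with values formed within wells in nuclei. The count at least 2-fold higher in nuclei than in cells became 1 with a limit of 2000 transcripts, 1 with Leiden resolution 0.5, 2 with a fold limit of 1.5, 1 with nuclear clusters 15 and 16 left out, 1 with only barcodes above 5000 transcripts and 1 with the well with most RG-like barcodes left out. The count at least 2-fold higher in cells became 2 with a mitochondrial limit of 10%, 3 with Leiden resolution 2, 2 with cycle genes kept in the clustering, 7 with a fold limit of 1.5 and 2 with nuclear clusters 15 and 16 left out. The licensing ratio by mitotic transcripts changed its side of 1, to 0.942 with Leiden resolution 2 and 0.815 with values formed within wells in cells, and to 1.53 with no thinning and 1.11 with thinning to 2000 transcripts in nuclei. The causes of these changes were not tested.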

Other observations

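Outside the list, the genes whose level followed the summed replication genes most closely over clusters were KNTC1, NCAPG2 and ATAD5 among 4701 genes in cells, and CENPU, KNTC1 and XRCC2 among 4547 genes in nuclei. Pearson r on the log2 scale was 0.986, 0.978 and 0.975 over 21 clusters of cells, and 0.987, 0.986 and 0.982 over 19 clusters of nuclei. KNTC1 is a kinetochore protein of the spindle checkpoint, NCAPG2 a condensin subunit, CENPU a centromere protein, ATAD5 an unloader of the PCNA clamp and XRCC2 a factor of recombination repair. The clusters share libraries and depth, and the values are descriptions.

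Among the related lists other than the histones, genes at the lower end of the comparison by mitotic transcripts in RG-like barcodes were named after their values had been seen. The inhibitor CDKN1A had ratios of 0.447 in cells and 0.455 in nuclei, and RRM2B, the p53-induced reductase subunit, 0.439 in cells and 0.545 in nuclei, the latter against 4.14 and 3.83 for its paralogue RRM2. Of the same inhibitor family, CDKN1C had 0.782 in cells and 0.398 in nuclei, at a level of only 0.00838 CP10K in RG-like nuclei, and CDKN1B went the other way in nuclei, with 1.02 in cells and 1.63 in nuclei. The D cyclins, which drive G1 with CDK4 and CDK6, had ratios of 0.738 in cells and 0.633 in nuclei for CCND1, 0.815 in cells and 0.651 in nuclei for CCND2 and 0.717 in cells and 0.634 in nuclei for CCND3, and UNG, the uracil glycosylase, 0.724 in cells and 0.673 in nuclei. These ratios were not formed within wells.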
